A study of Homo sapiens with 12 samples.

Results

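The genes described here are the collagens, the structural proteins of the extracellular matrix and the proteases that cut it, in RCC4, a cell line established from a human clear cell renal carcinoma. Members were chosen by symbol. They were every measured collagen chain (COL), matrix metalloproteinase (MMP), tissue inhibitor of metalloproteinases (TIMP) and ADAMTS protease, together with 12 matrix proteins (FBN1, FBN2, FN1, SPARC, THBS1, THBS2, TNC, LUM, DCN, BGN, POSTN and FBLN1). This gave 80 of 11963 measured genes: 32 collagen chains, 21 MMPs, 12 matrix proteins, 10 ADAMTS proteases, 4 TIMPs and MMP24OS, a locus on the strand opposite MMP24 that shares its symbol's letters and is not itself a protease gene.

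The study asked how silencing YAP, the transcriptional co-activator YAP1 of the Hippo pathway, changed expression in these cells. The 4 groups were siYAP with erastin, siNT with erastin, siYAP with DMSO and siNT with DMSO, where siNT is a non-targeting siRNA, and each group held 3 arrays. Silencing lasted 2 days, and the cells then received 1 µM erastin, an inhibitor of cystine import that can set off ferroptosis, or its solvent DMSO for 7 h. All groups were the same line in culture, so the cells had no stroma beside them, and the number of siRNA sequences is not given in the sources used here.

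Collagen chains wind into triple helices in threes and assemble outside the cell into fibrils, into the networks of the basement membrane, or into links between these. MMPs and ADAMTS proteases cut these proteins, and TIMPs block the MMPs. In the kidney tubule the basement membrane is built largely of type IV collagen and laminin. YAP acts through the TEAD family of DNA-binding proteins, whose targets include the matrix-associated genes CCN1 and CCN2.

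Values are log2 units of RMA, which removes background, evens out the arrays and sums up the probes of a gene's probe set, so a difference of 1 is a doubling. A gene's level depends on its probes, so levels are compared between samples and not between genes. YAP1 itself lay between 4.18 and 6.21 on the 6 siYAP arrays, against 8.47 to 8.65 on the 6 siNT arrays. It fell by 3.91 in DMSO and fell by 3.28 under erastin (limma adjusted p = 8.44e-07 and 3.74e-06). The array of siYAP with erastin replicate 2 stood apart from the other siYAP arrays, with YAP1 at 6.21. Of 11 measured markers of renal carcinoma and tubule cells, 0 lay below the 30th percentile of all genes, a level of 5.38 below which a gene is called dim here. By the same measure 6 of 8 fibroblast and pericyte markers, 7 of 9 endothelial markers and 8 of 10 immune markers were dim. Median levels over these 4 lists were 10.5, 4.40, 4.33 and 4.67. After silencing, 7 of the 11 renal markers (63.6%) were called in DMSO and 7 under erastin, each time 5 higher and 2 lower. Of all genes that were not dim, 45.2% and 46.7% were called. Calls on the last 3 lists were RGS5 (0.44) in DMSO, and ITGAM (0.54) and ROBO4 (−0.26) under erastin. The part of these 4 lists in the silencing results was not tested.

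A total of 47 of the 80 members were dim and 33 were not. A dim value can be mostly background, and RMA draws its fold changes towards 0. Members with high signal over all 12 arrays were COL4A1 (mean 13.2) and COL4A2 (12.8), the basement membrane chains, FN1 (12.3), which is fibronectin, TIMP1 (12.02) and THBS1 (10.997), which is thrombospondin 1. They also included MMP1 (9.92), ADAMTS1 (9.47), COL6A1 (8.96), MMP24OS (8.65) and COL18A1 (8.61).

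Promoters of 4 called members are printed to show the DNA beside their starts: FBN1, ADAMTS3 and COL7A1 for the size of their changes, and MMP7, a dim gene with a smaller change, for its AP-1 letters. They come from RefSeq (GRCh38.p14), run from 250 bases before to 50 bases after the start, and read 5′ to 3′ on the gene's strand. Promoters were found for 53 of the 80 members. None was found for MMP1 or COL5A2, so these were not searched. Capitals mark the letters searched on both strands, GGAATG, a core that TEAD proteins bind, and TGANTCA. With any base at N, TGANTCA takes in the AP-1 site known from MMP promoters but is wider than that site. FBN1 (chr15:48644921-48645220, minus strand) and MMP7 (chr11:102530698-102530997, minus strand) hold 1 match each. ADAMTS3 (chr4:72569172-72569471, minus strand) and COL7A1 (chr3:48595280-48595579, minus strand) hold neither in this window.
FBN1: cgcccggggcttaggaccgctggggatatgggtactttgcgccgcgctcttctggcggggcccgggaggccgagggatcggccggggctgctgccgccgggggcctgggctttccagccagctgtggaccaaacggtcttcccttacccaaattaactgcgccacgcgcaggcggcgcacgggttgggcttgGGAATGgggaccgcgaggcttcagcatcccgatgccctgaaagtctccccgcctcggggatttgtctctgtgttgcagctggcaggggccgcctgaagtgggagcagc
MMP7: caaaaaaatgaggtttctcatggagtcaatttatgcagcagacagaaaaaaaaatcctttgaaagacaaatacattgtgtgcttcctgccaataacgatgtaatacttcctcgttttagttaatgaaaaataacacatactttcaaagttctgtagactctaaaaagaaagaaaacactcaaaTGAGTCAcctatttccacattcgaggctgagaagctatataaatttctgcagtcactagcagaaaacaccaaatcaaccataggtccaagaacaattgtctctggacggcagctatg
ADAMTS3: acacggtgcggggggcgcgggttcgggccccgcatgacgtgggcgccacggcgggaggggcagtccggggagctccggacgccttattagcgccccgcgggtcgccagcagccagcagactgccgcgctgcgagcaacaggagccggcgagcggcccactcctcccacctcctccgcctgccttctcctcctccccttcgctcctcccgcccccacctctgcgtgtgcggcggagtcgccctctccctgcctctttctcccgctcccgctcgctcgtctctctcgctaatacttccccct
COL7A1: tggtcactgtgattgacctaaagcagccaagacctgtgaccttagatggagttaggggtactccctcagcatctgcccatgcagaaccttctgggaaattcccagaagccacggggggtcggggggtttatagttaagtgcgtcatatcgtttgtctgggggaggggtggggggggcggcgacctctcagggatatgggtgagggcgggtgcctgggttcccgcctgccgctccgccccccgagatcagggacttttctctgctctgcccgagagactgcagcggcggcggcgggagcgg

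In FBN1 the match starts 58 bases before the gene's start, and in MMP7 it starts 67 bases before. The letters GGAATG, or CATTCC on the other strand, occurred in 9 of the 53 member promoters (16.98%), against 14.05% of 27305 RefSeq promoters. TGANTCA occurred in 5 of 53 (MMP7, MMP10, MMP20, ADAMTS12 and POSTN), or 9.43%, against 7.76% of all promoters. A match describes letters only and is not evidence of binding. The promoters differed in composition: G and C made up 72.7% of the ADAMTS3 window, 68.3% of FBN1, 62.3% of COL7A1 and 35.7% of MMP7.

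After YAP silencing in DMSO most members did not pass the test. Among those that did, MMP1 rose 3.24-fold and ADAMTS3 2.52-fold, FBN1 rose 2.03-fold, and COL5A2 fell by 1.32 on the log2 scale. In all, 17 of 80 members passed limma's adjusted p under 0.05, 9 higher and 8 lower, which is 21.2% of the members beside 33.7% of all genes (18.1% higher and 15.6% lower). Of the 32 collagen chains 1 was higher, 7 were lower and 24 were not called. Of the proteases 3 of 21 MMPs and 2 of 10 ADAMTS were higher and 0 lower, 1 of 4 TIMPs was higher, and 2 of 12 matrix proteins were higher and 1 lower. The median difference over the 80 members was 0.02, as over all genes, and the median size of a difference was 0.11, against 0.13 for all genes. The siYAP and siNT arrays did not overlap for 25 members, beside 45.4% of all genes.

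Under erastin 20 of 80 members passed in the same comparison, 12 higher and 8 lower, which is 25% beside 34.9% of all genes (20% higher and 14.8% lower). Collagens had 0 higher and 5 lower, MMPs 6 higher and 0 lower, matrix proteins 3 higher and 3 lower, ADAMTS 2 higher and TIMPs 1 higher. The median was −0.01 over members and 0.01 over all genes. The siYAP and siNT arrays did not overlap for 21 members, beside 45% of all genes. A total of 14 members were called in both, 8 higher and 6 lower, and 0 were called in opposite directions. Without siYAP with erastin replicate 2, whose YAP1 value stood apart, 16 members were called under erastin, beside 30.5% of all genes. COL5A1, THBS1, MMP10 and FBLN1 were lost. The silencing comparisons in DMSO and under erastin share no array, but they share the siRNA treatment and the fitted spread. Among the 33 members that were not dim, 11 were called in each comparison (33.3%), against 45.2% of all such genes in DMSO and 46.7% under erastin. Among the 47 dim members 6 (12.8%) and 9 (19.1%) were called, against 6.71% and 7.30% of all dim genes. Levels are of bulk cultures, in which fewer cells making a transcript and less of it per cell cannot be told apart.

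**Figure D1:**
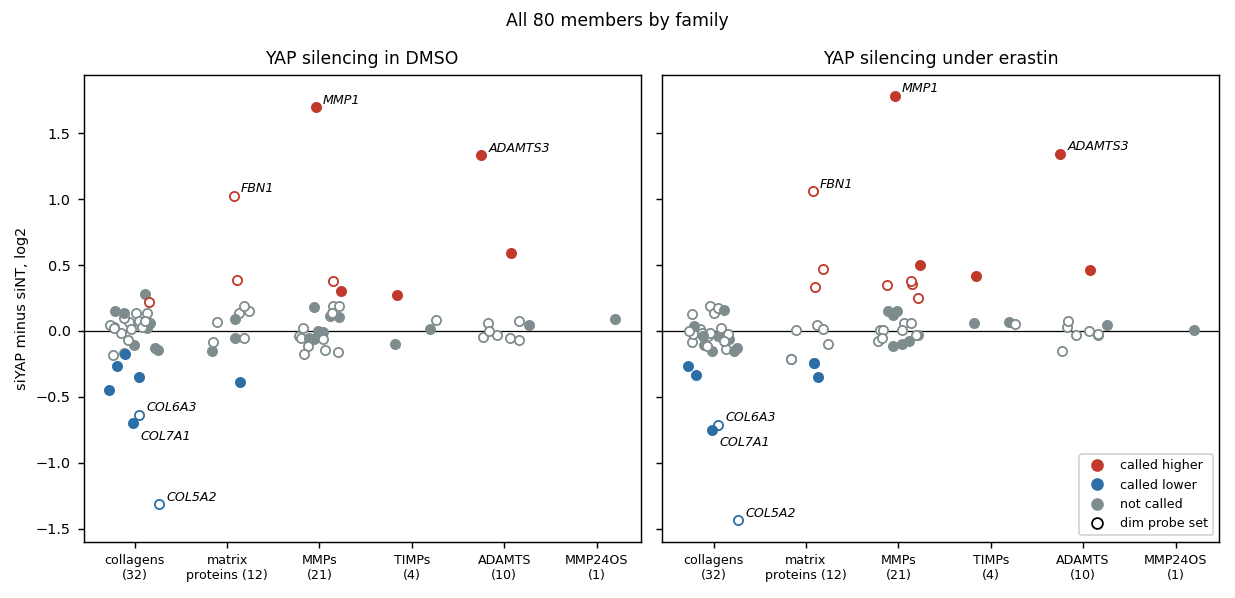
Each point is 1 of the 80 members, placed by family on the x axis, with the siYAP minus siNT difference in log2 units on the y axis, for cells under erastin and cells in DMSO. The coloured points passed adjusted p under 0.05: MMP1 and ADAMTS3 lie highest, the called collagens other than COL8A1 lie below 0, and most members lie near 0.

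MMP1, the interstitial collagenase that cuts fibrillar collagens, read 10.72, 10.72 and 10.78 in siYAP with DMSO, against 9.08, 9.03 and 9.01 in siNT with DMSO. Under erastin it read 10.82, 10.80 and 10.90 in siYAP, against 9.00, 9.08 and 9.09 in siNT. Every siYAP array was above every siNT array in both treatments, and the gap far exceeded the spread within any group. MMP1 rose by 1.70 in DMSO (95% interval 1.59 to 1.81, limma adjusted p = 1.98e-09) and, under erastin, by 1.78 (1.67 to 1.90, adjusted p = 1.41e-09). The other measured collagenases, MMP8 and MMP13, were dim and not called, and MMP13 differed by −0.16 and −0.03.

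MMP9, gelatinase B, which cuts denatured collagen and type IV collagen, read 7.72, 7.65 and 7.44 in siYAP with DMSO, against 7.37, 7.34 and 7.19 in siNT with DMSO. Values under erastin were 7.63, 7.56 and 7.66 in siYAP, against 7.11, 7.12 and 7.12 in siNT. The groups did not overlap in either pair. The rise was 0.31 in DMSO (limma adjusted p = 0.00587) and 0.50 under erastin (adjusted p = 0.000163). MMP2, gelatinase A, was dim and rose by 0.25 under erastin (adjusted p = 0.0408), with a difference of 0.19 in DMSO that did not pass (adjusted p = 0.117). The MMP2 call was lost without any 1 of 5 arrays, with a difference of 0.16 without siNT with erastin replicate 3 as the lowest.

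MMP1 lies in a run of 9 MMP genes on chromosome 11 with no other protein-coding gene between them, in the order MMP7, MMP20, MMP27, MMP8, MMP10, MMP1, MMP3, MMP12 and MMP13. The other 8 were dim, and their silencing differences ran from −0.18 to 0.38 in DMSO and from −0.08 to 0.38 under erastin. MMP7, matrilysin, rose by 0.38 in both (limma adjusted p = 0.0138 and 0.0133). MMP10, stromelysin 2, rose by 0.35 under erastin (adjusted p = 0.0353), as did MMP20, enamelysin, by 0.35 (adjusted p = 0.0144), and in DMSO they differed by 0.19 and −0.12 without passing. Some of these calls were lost without 1 array. MMP7 in DMSO was not called without siNT with DMSO replicate 2 (0.30) or siYAP with DMSO replicate 1 (0.26). MMP20 was not called without siYAP with erastin replicate 1 (0.28), and MMP10 without any 1 of 4 erastin arrays (0.28 to 0.33). The promoter letters TGANTCA stood in MMP7, MMP10 and MMP20, all from the same run. MMP1 had no promoter to search, and other members without a promoter were not searched either. Among the 6 membrane-type MMPs 0 were called in either comparison. MMP14, which activates MMP2 at the cell surface, differed by 0.19 in DMSO (95% interval 0.01 to 0.36, adjusted p = 0.107) and, under erastin, by 0.12.

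**Figure D2:**
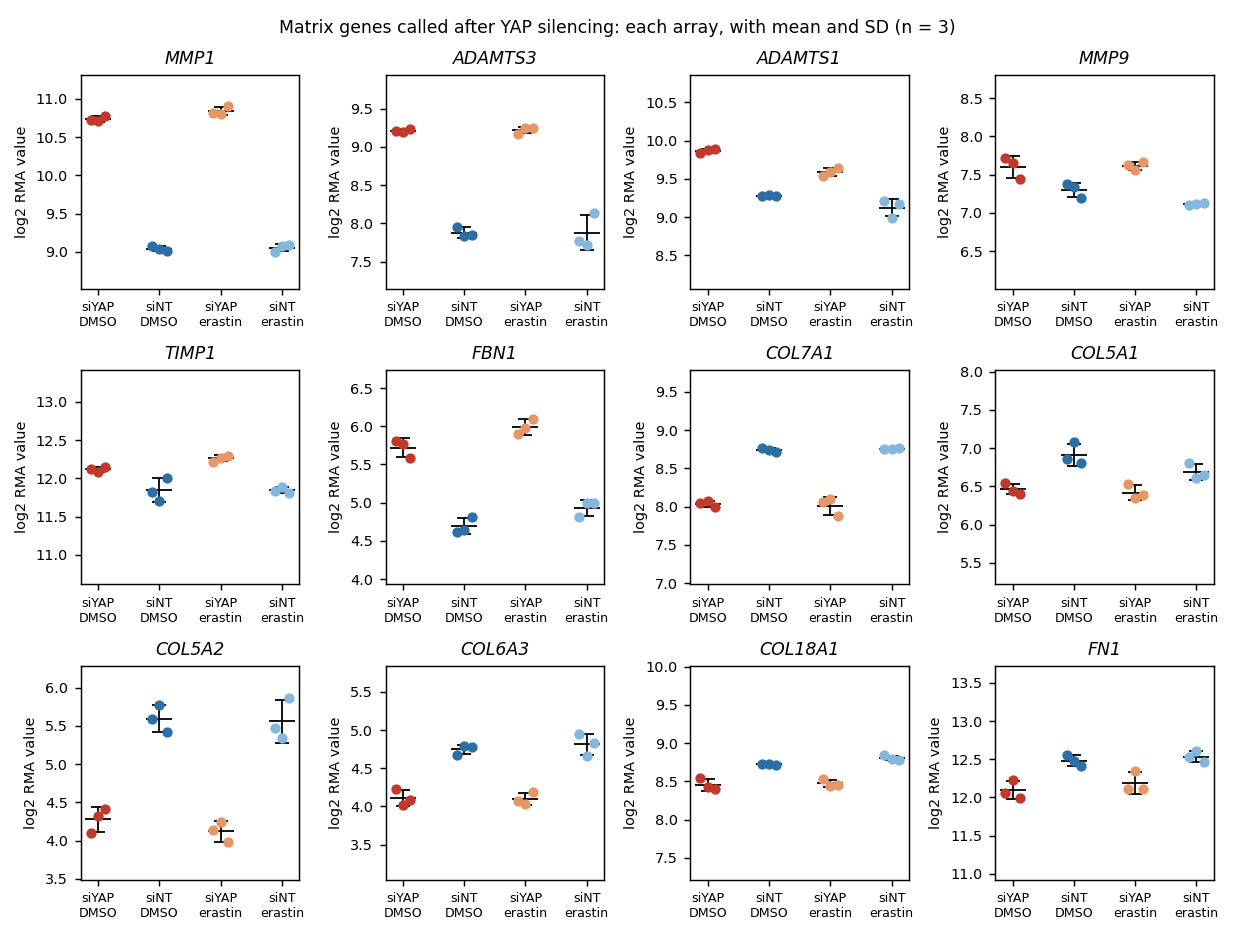
Each panel gives a gene's log2 RMA value on every array for siYAP with erastin, siNT with erastin, siYAP with DMSO and siNT with DMSO, with the mean and SD of the 3 arrays. All panels span the same log2 range. The siYAP and siNT arrays of MMP1 and ADAMTS3 are far apart in both treatments.

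ADAMTS3, which removes the amino-terminal propeptide of procollagen and activates VEGF-C, read 9.21, 9.20 and 9.23 in siYAP with DMSO, against 7.96, 7.84 and 7.85 in siNT with DMSO. With erastin the values were 9.17, 9.25 and 9.24 in siYAP, against 7.77, 7.72 and 8.14 in siNT. All siYAP arrays lay at least a full log2 unit above all siNT arrays, and siNT with erastin replicate 3 was the high array of its group. ADAMTS3 rose by 1.33 in DMSO (SE 0.0912, limma adjusted p = 2.77e-07) and, under erastin, by 1.35 (adjusted p = 2.99e-07).

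ADAMTS1, which cuts the proteoglycans aggrecan and versican, read 9.84, 9.87 and 9.89 in siYAP with DMSO, against 9.27, 9.29 and 9.28 in siNT with DMSO. Under erastin it read 9.53, 9.59 and 9.64 in siYAP, against 9.21, 8.99 and 9.17 in siNT. The siYAP arrays were above the siNT arrays in both pairs, and every erastin array lay below every DMSO array of the same siRNA. The rise was 0.59 in DMSO (limma adjusted p = 7.8e-06) and 0.46 under erastin (adjusted p = 6.21e-05). Its neighbour ADAMTS5 and the other 7 ADAMTS members were not called.

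TIMP1, an inhibitor of most MMPs, read 12.12, 12.09 and 12.15 in siYAP with DMSO, against 11.82, 11.70 and 12.01 in siNT with DMSO. Values under erastin were 12.22, 12.27 and 12.30 in siYAP, against 11.84, 11.89 and 11.81 in siNT. The siYAP and siNT arrays did not overlap, and siNT with DMSO spread most. TIMP1 rose by 0.27 in DMSO (limma adjusted p = 0.00854) and, under erastin, by 0.42 (adjusted p = 0.000468). The other 3 TIMPs were not called: TIMP2 differed by 0.01 and 0.06, and TIMP3, which binds to the matrix, by −0.10 and 0.06.

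Of the 3 measured chains of type V collagen, COL5A2 and COL5A1 fell, and COL5A3 differed by 0.14 in DMSO and −0.04 under erastin without passing (limma adjusted p = 0.269 and 0.802). COL5A2, which joins COL5A1 in the type V helix that sets the width of collagen fibrils, was dim. It read 4.10, 4.32 and 4.41 in siYAP with DMSO, against 5.59, 5.78 and 5.42 in siNT with DMSO. With erastin the values were 4.14, 4.25 and 3.98 in siYAP, against 5.47, 5.34 and 5.87 in siNT. The siYAP arrays lay at a level where signal can be mostly background, at least a full log2 unit below any siNT array of the same treatment. COL5A2 fell by 1.32 in DMSO (SE 0.136, limma adjusted p = 7.87e-06) and fell by 1.44 under erastin (adjusted p = 3.99e-06). Its second probe set fell by 0.38 in DMSO and differed by −0.06 under erastin, without passing there.

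COL5A1 read 6.54, 6.44 and 6.41 in siYAP with DMSO, against 6.85, 7.08 and 6.81 in siNT with DMSO. Under erastin it read 6.53, 6.34 and 6.38 in siYAP, against 6.80, 6.61 and 6.65 in siNT. The groups were apart, but the gap under erastin was small. It fell by 0.45 in DMSO (limma adjusted p = 0.000853) and fell by 0.27 under erastin (adjusted p = 0.0221), and neither of its other 2 probe sets was called. Without siNT with erastin replicate 1, siYAP with erastin replicate 2 or siYAP with erastin replicate 3, the difference under erastin was −0.21, −0.23 or −0.25 and no longer passed (adjusted p = 0.0942, 0.0864 and 0.0739). COL3A1, the neighbour of COL5A2 on chromosome 2, was dim and differed by 0.08 and 0.17. The chains of type I collagen, COL1A1 and COL1A2, differed by 0.15 and 0.07 in DMSO and by 0.04 and −0.04 under erastin, and neither passed.

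COL7A1, the only chain of the anchoring fibrils that fasten an epithelium's basement membrane to the tissue beneath, was not dim, and its siNT arrays were very even. It read 8.05, 8.07 and 7.99 in siYAP with DMSO, against 8.76, 8.74 and 8.72 in siNT with DMSO. Values under erastin were 8.05, 8.09 and 7.88 in siYAP, against 8.75, 8.76 and 8.77 in siNT. The siYAP arrays lay below all siNT arrays in both treatments. COL7A1 fell by 0.70 in DMSO (SE 0.0594, limma adjusted p = 1.52e-06) and fell by 0.75 under erastin (adjusted p = 9.8e-07). Its second probe set fell by 0.99 and 0.76.

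COL6A3, a chain of the beaded microfibrils of type VI collagen, was dim and read 4.22, 4.03 and 4.09 in siYAP with DMSO, against 4.68, 4.79 and 4.78 in siNT with DMSO. With erastin the values were 4.08, 4.03 and 4.19 in siYAP, against 4.94, 4.66 and 4.83 in siNT. The groups were apart in both treatments. It fell by 0.64 in DMSO (limma adjusted p = 4.02e-05) and fell by 0.71 under erastin (adjusted p = 1.5e-05). COL6A1, its partner chain, fell by 0.17 in DMSO (adjusted p = 0.0479), a call lost under 15 of the alternatives (with averaged probe sets it differed by −0.04, adjusted p = 0.635, and without siYAP with DMSO replicate 2 by −0.14, adjusted p = 0.168), and differed by −0.10 under erastin (adjusted p = 0.231). COL6A2, the remaining partner and neighbour of COL6A1 on chromosome 21, differed by −0.13 and −0.15 without passing.

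COL18A1, a basement membrane collagen and the source of endostatin, fell by 0.27 in DMSO (limma adjusted p = 0.00151) and fell by 0.33 under erastin (adjusted p = 0.000296), while its second probe set differed by −0.04 and 0.06. COL13A1, a transmembrane collagen, fell by 0.35 in DMSO (adjusted p = 0.0136), with a difference of −0.04 under erastin (adjusted p = 0.811). Without siYAP with DMSO replicate 2 it differed by −0.29 and was not called (adjusted p = 0.0627). Its other 2 probe sets differed by −0.03 and −0.08 in DMSO and were not called, and with averaged probe sets the gene fell by 0.15 (adjusted p = 0.0275). COL8A1, a network-forming collagen, was dim and rose by 0.22 in DMSO (adjusted p = 0.0331), the 1 collagen called higher, and it differed by −0.02 under erastin. The COL8A1 call was lost without siNT with DMSO replicate 1 (0.15), siYAP with DMSO replicate 2 (0.22) or siYAP with DMSO replicate 3 (0.18). None of the 7 fibril-associated chains was called in either comparison.

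On their analysed probe sets the 6 type IV chains, which build the basement membrane network, were not called in either comparison. COL4A1 averaged 13.2 in every group and differed by 0.02 in DMSO (95% interval −0.08 to 0.13) and by −0.04 under erastin (−0.15 to 0.07). COL4A2, whose gene lies next to it on chromosome 13, differed by −0.14 in DMSO (−0.27 to −0.02, limma adjusted p = 0.0807), and its difference under erastin was −0.13 (adjusted p = 0.105). COL4A2 passed as lower with a trended and robust variance in DMSO (adjusted p = 0.0135) and under erastin (0.0217), in DMSO without the dimmest genes (0.0450), and under erastin without siNT with erastin replicate 3 (0.0427). Averaging each gene's probe sets called COL4A1 (−0.34, limma adjusted p = 0.0099) and COL4A2 (−0.36, 0.00392) lower under erastin. The second probe sets of both genes were also called lower there, as given below. COL4A5 and COL4A6 were called in DMSO without siYAP with DMSO replicate 3. A p that misses the threshold does not show that the levels were equal.

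**Figure D3:**
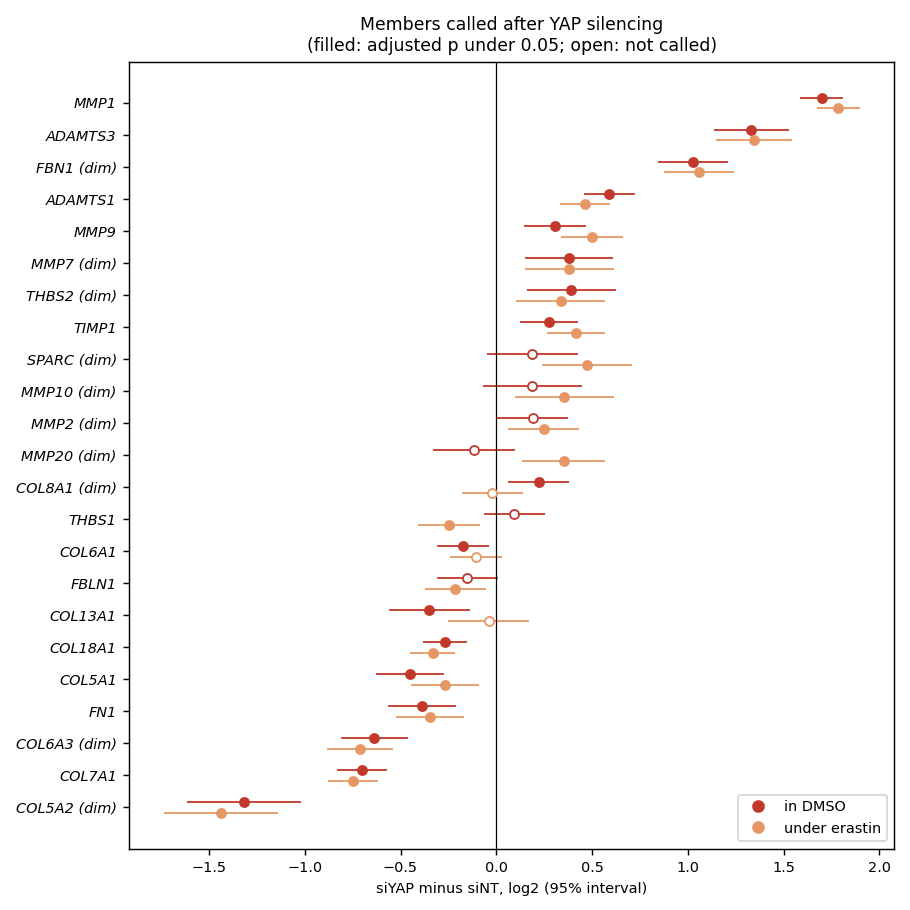
Points are siYAP minus siNT differences in log2 units with 95% intervals, for cells under erastin and cells in DMSO, for the 23 members called in at least 1 silencing comparison. Filled points passed adjusted p under 0.05. Differences run from −1.44 for COL5A2 to 1.78 for MMP1.

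FBN1, fibrillin 1, the backbone of the microfibrils on which elastin is laid down, was dim. It read 5.81, 5.77 and 5.58 in siYAP with DMSO, against 4.62, 4.65 and 4.82 in siNT with DMSO. Under erastin it read 5.89, 5.98 and 6.10 in siYAP, against 4.81, 4.99 and 4.99 in siNT. The arrays did not overlap in either pair. FBN1 rose by 1.02 in DMSO (SE 0.084, limma adjusted p = 1.15e-06) and, under erastin, by 1.06 (adjusted p = 9.74e-07), but its second probe set differed by 0.07 and 0.20 and was not called.

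SPARC, a collagen-binding protein that acts on matrix assembly, was dim and read 4.38, 4.54 and 4.50 in siYAP with DMSO, against 4.22, 4.26 and 4.38 in siNT with DMSO. Values under erastin were 4.54, 4.39 and 4.84 in siYAP, against 4.29, 4.002 and 4.05 in siNT. In DMSO the lowest siYAP array equalled the highest siNT array to the decimals printed, and under erastin the groups were apart. It rose by 0.47 under erastin (limma adjusted p = 0.00408) and differed by 0.19 in DMSO (adjusted p = 0.22), and a second SPARC probe set did not pass. THBS2, thrombospondin 2, was dim and rose by 0.39 in DMSO (adjusted p = 0.0127) and, under erastin, by 0.34 (adjusted p = 0.0269). Leaving out 1 array ended the THBS2 call in DMSO for 2 arrays (0.35 each) and under erastin for 3 arrays (0.22 to 0.34).

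FN1, fibronectin, the adhesive glycoprotein on which collagen fibrils are laid, fell by 0.39 in DMSO (limma adjusted p = 0.00224) and fell by 0.35 under erastin (adjusted p = 0.00473). All 6 FN1 probe sets were called lower in DMSO and 5 of 6 under erastin. FBLN1, fibulin 1, fell by 0.22 under erastin (adjusted p = 0.0367) and differed by −0.15 in DMSO (adjusted p = 0.138). The FBLN1 call was lost without any 1 of the 6 erastin arrays (−0.24 to −0.19). THBS1, thrombospondin 1, fell by 0.25 under erastin (adjusted p = 0.019) and differed by 0.09 in DMSO (adjusted p = 0.387). The THBS1 call was lost without siNT with erastin replicate 1, siYAP with erastin replicate 2 or siYAP with erastin replicate 3 (−0.21, −0.23 and −0.21). TNC, tenascin C, differed by −0.05 and 0.02, and POSTN, periostin, by −0.09 and −0.21, without passing. The proteoglycans LUM, DCN and BGN were not called.

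Erastin itself called 0 members. In siNT cells 0 of 80 passed, beside 0.752% of all genes (90 genes, 0.485% higher and 0.267% lower), and 7 members had an unadjusted p under 0.05. The erastin and DMSO arrays did not overlap for 9 members there, beside 14.4% of all genes. In siYAP cells 0 of 80 passed in limma, beside 0.334% of all genes (40 genes, 0.326% higher and 0.00836% lower), 7 members had an unadjusted p under 0.05, and the arrays did not overlap for 11 members, beside 22.4% of all genes. The member nearest the threshold was ADAMTS1 in siYAP cells, which differed by −0.28 (adjusted p = 0.125), with −0.15 in siNT cells (adjusted p = 0.385). With a trended and robust variance ADAMTS1 was called lower in siYAP cells, the 1 member called there by that fit, beside 0.619% of all genes. In siNT cells that fit called 0 members, beside 1.35% of all genes. The erastin comparisons use the same arrays as the silencing comparisons.

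The difference between silencing under erastin and in DMSO was tested as an interaction. It called 0 of 80 members, beside 0% of all genes, with 4 members and 1179 genes at an unadjusted p under 0.05. The trended and robust fit called 0 members and 8 genes. MMP20 (0.47, adjusted p = 0.422) and THBS1 (−0.34, adjusted p = 0.422) lay at the ends of the members' range. Thus the 3 members called only in DMSO (COL6A1, COL13A1 and COL8A1) and the 6 called only under erastin (THBS1, FBLN1, MMP2, SPARC, MMP10 and MMP20) were not shown to differ between the treatments. The 57 members called in no comparison had silencing differences of −0.18 (COL10A1) to 0.28 (COL4A5) in DMSO and of −0.24 (BGN) to 0.19 (COL15A1) under erastin.

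**Figure D4:**
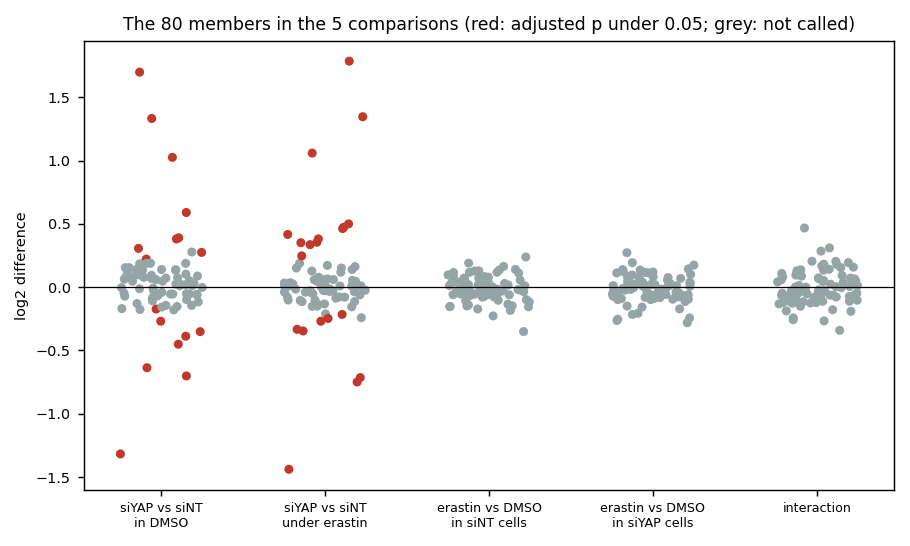
Each point is 1 of the 80 members in 1 of the 5 comparisons, with the log2 difference on the y axis. Red points passed adjusted p under 0.05 and stand in the silencing comparisons alone (17 and 20 members), and the erastin comparisons and the interaction hold 0.

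Of 2 measures of RNA integrity, 1 moved with the groups under erastin. The log2 gap between the 3′ and 5′ control probe sets of ACTB was 3.35, 3.57 and 3.71 in siYAP with erastin, against 2.82, 2.47 and 1.49 in siNT with erastin. It was 3.14, 1.49 and 3.14 in siYAP with DMSO, against 2.40, 2.66 and 2.97 in siNT with DMSO. The groups under erastin did not overlap, and those in DMSO did. The same gap for GAPDH was 0.203, 0.127 and 0.176 in siYAP with erastin, against 0.222, 0.147 and 0.0702 in siNT with erastin, and these overlapped. With the ACTB gap as a covariate, a setting added after seeing the data, the 17 calls in DMSO were kept, beside 35.0% of all genes called. Under erastin 12 members were called (7 higher and 5 lower), beside 25.6% of all genes, where 34.9% were called without the covariate. The 9 calls lost there were FN1 (−0.27, limma adjusted p = 0.0947), THBS1 (−0.24, 0.112), FBLN1 (−0.11, 0.432), COL5A1 (−0.30, 0.0823), SPARC (0.42, 0.0629), THBS2 (0.32, 0.154), MMP7 (0.18, 0.314), MMP2 (0.26, 0.155) and MMP10 (0.35, 0.168). Without the covariate these 9 differed, in the same order, by −0.35, −0.25, −0.22, −0.27, 0.47, 0.34, 0.38, 0.25 and 0.35. The gap did not overlap between siYAP and siNT under erastin, so this fit cannot fully separate the gap from silencing there. With the covariate COL6A1 was gained (−0.21, 0.0434). MMP1 kept a difference of 1.79, ADAMTS3 of 1.47, FBN1 of 1.10, COL5A2 of −1.23, COL6A3 of −0.81 and COL7A1 of −0.70.

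Other probe sets of 3 genes with high signal showed larger differences under erastin than the probe sets analysed. Another THBS1 probe set read 8.97, 8.71 and 8.58 in siYAP with erastin, against 9.42, 9.51 and 9.96 in siNT with erastin, and fell by 0.88 (limma adjusted p = 0.00449 over all probe sets). With the ACTB gap as a covariate it differed by −0.33 (adjusted p = 0.127). The second COL4A1 probe set read 9.78, 9.61 and 9.59 in siYAP with erastin, against 10.08, 10.23 and 10.62 in siNT with erastin, and fell by 0.65 (adjusted p = 0.00963), or differed by −0.17 with the covariate (adjusted p = 0.259). The second COL4A2 probe set fell by 0.58 (adjusted p = 0.00375), or differed by −0.39 with the covariate (adjusted p = 0.113). In DMSO these differed by 0.05, −0.06 and −0.18. A further THBS1 probe set read 7.46, 7.23 and 7.45 in siYAP with erastin, against 7.62, 7.68 and 7.97 in siNT with erastin. The dimmer ones overlapped, with 5.15, 4.73 and 4.78 against 5.00, 4.77 and 5.08, and 4.57, 4.43 and 4.46 against 4.56, 4.61 and 4.31. The 3 genes and the THBS1 probe set that fell by 0.88 were chosen for this display after their values were seen. The part of RNA integrity in the differences was not tested further.

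**Figure D5:**
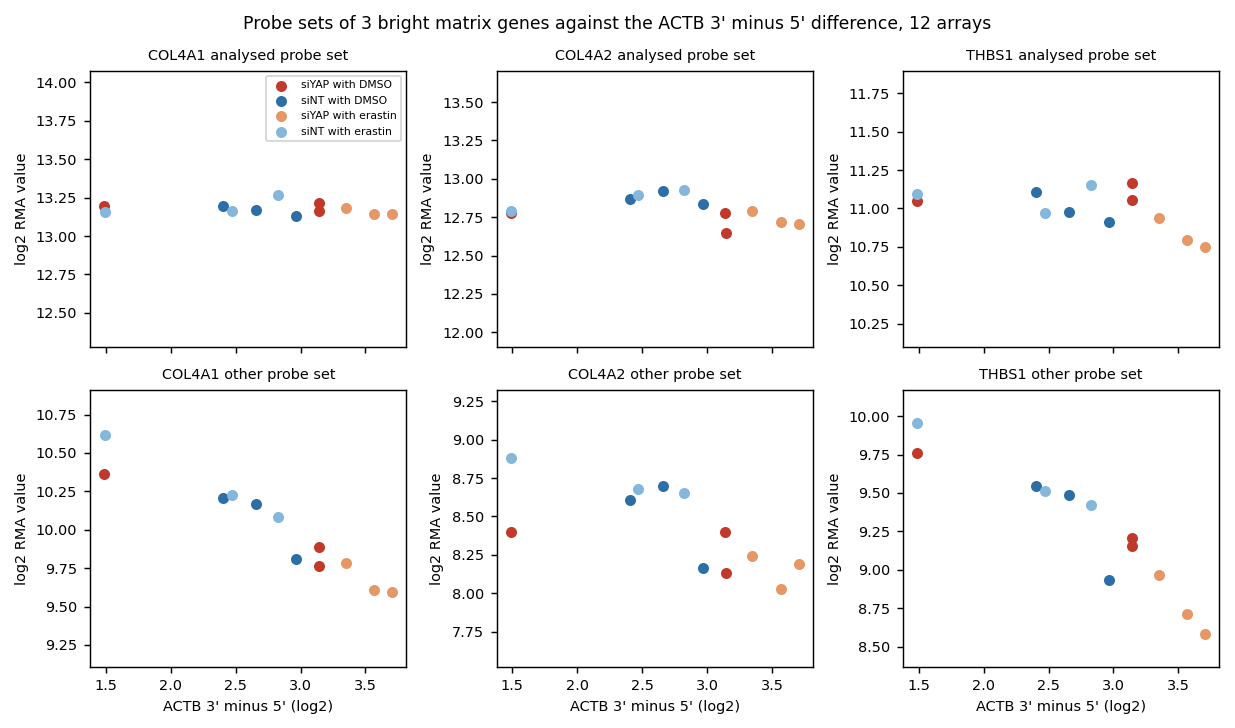
For COL4A1, COL4A2 and THBS1 the log2 RMA value of the analysed probe set (top) and another probe set (bottom) is plotted against the ACTB 3′ minus 5′ gap in log2 units, 1 point an array, 12 arrays. On the bottom probe sets the arrays of siYAP with erastin, at gaps of 3.35 to 3.71, lie below all arrays of siNT with erastin. There siNT with erastin replicate 3, at 1.49, lies highest.

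Genes that process or surround these members were examined on 3 further lists. Called shares over all genes were 33.7% in DMSO and 34.9% under erastin, and 45.2% and 46.7% over genes that were not dim. Of 26 collagen and matrix processing enzymes, 3 of them dim, 5 were higher and 7 lower after silencing in DMSO (46.2%), and 5 and 8 under erastin (50%). PLOD2, which hydroxylates collagen lysines for cross-linking, fell by 2.67 and 2.41, and P4HA1, a prolyl hydroxylase subunit, fell by 0.37 and 0.63. FKBP14, a collagen-folding isomerase, fell by 1.04 and 0.94, and TLL2, a tolloid-like protease, rose by 0.56 and 0.70. Of 26 genes of the plasminogen system and other pericellular proteases, 3 of them dim, 8 were higher and 4 lower in DMSO (46.2%), and 10 and 6 under erastin (61.5%). CTSS, cathepsin S, rose by 0.92 and 1.05, SERPINE2, a protease inhibitor, by 0.68 and 0.58, and ADAM17, which sheds membrane proteins, fell by 0.66 and 0.54. PLAUR, the urokinase receptor, fell by 0.46 with erastin in siNT cells, the 1 gene of these lists called with erastin.

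Of 41 other matrix genes, 16 of them dim, 6 were higher and 6 lower after silencing in DMSO (29.3%, beside 33.7% of all genes), and 7 and 9 under erastin (39%, beside 34.9%). CCN3, a matricellular protein, rose by 2.18 and 2.27, and MATN2, matrilin 2, rose by 1.20 and 1.23. NID1, nidogen 1, which links laminin to type IV collagen, fell by 0.69 and 0.70. CCN2, a widely used YAP target, rose by 0.76 and 0.45. All values of these lists passed limma's adjusted p under 0.05.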

How the data were processed

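Expression was measured on 12 single-channel Affymetrix arrays of RCC4 cells, grouped by sample title. The deposited values are log2 values that the authors computed by RMA in Affymetrix Expression Console, as the submitters' processing notes name these tools; for versions, settings and array type the sources used here give nothing. The range of 2.02 to 14.4 and the array medians of 6.49 to 6.52 fit that scale. RMA evens out arrays, so a change in total RNA would not be seen.

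Of 22277 probe sets, 19065 had 1 gene symbol in the platform annotation, 1043 several and 2107 none. Each of 11963 genes was represented by its single-symbol probe set of highest 12-array mean. MMP23A and MMP23B, on a shared probe set, were not used. The test was limma 3.58.1 (R 4.3.3) on group means of all 12 arrays (8 residual degrees of freedom), with Benjamini-Hochberg adjustment over all genes and a threshold of 0.05. The 5 comparisons were siYAP against siNT under erastin and in DMSO, erastin against DMSO in siYAP and in siNT cells, and the interaction. The number of arrays limits the precision; the median SE of a silencing difference was 0.0780. The design text calls the replicates biological without saying whether cultures were grown apart, so the p-values reflect only the spread among these samples, which may be technical.

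Members and lists were chosen with earlier results of these data known. Named were all members called in any comparison, the 10 with the highest mean, family members as their roles need, and up to 4 called genes of each further list; array values are printed for members called after silencing with a difference of at least 0.4. Alternatives tried were only the 6 arrays compared, a replicate block, median centring, quantile normalization, leaving out the dimmest 30% of genes, averaged probe sets, each probe set separately, a trended and robust variance, leaving out each array, and the ACTB covariate added after seeing the data.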

Additional observations from a re-analysis of the deposited data

How the results depend on the processing

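Leaving out each array in turn gave 14 to 18 called members for silencing in DMSO (17 with all arrays), 14 to 23 for silencing under erastin (20), 0 to 1 for erastin in siYAP cells, and 0 to 0 for erastin in siNT cells and for the interaction. The 1 call was ADAMTS1, lower with erastin in siYAP cells without siNT with erastin replicate 2, and a trended and robust variance also gave 1 there. Over all genes, leaving out an array called 28.6% to 36.0% for silencing in DMSO and 28.8% to 35.6% under erastin. For erastin in siYAP cells it called 20 to 45 genes. Silencing under erastin called 11 members when the dimmest 30% of genes were left out, which leaves 33 members to test. Of all genes kept in that setting, 51.5% were called. With the ACTB covariate 12 members were called, beside 25.6% of all genes. Of 37 silencing calls on members, 20 held under all alternatives, 17 were lost under at least 1 and 0 reversed. In this count, testing each probe set separately followed the analysed probe set alone. FBN1 in both comparisons, COL5A1 in DMSO and COL5A2 under erastin held, although no other probe set of theirs was called. Calls on dim members had 20 alternatives, without the setting that leaves out dim genes, and other calls had 21. With averaged probe sets the COL18A1 calls and the SPARC call were lost, FBN1 differed by 0.55 and 0.63 and COL5A2 by −0.85 and −0.75 in DMSO and under erastin, and COL4A1 (−0.34) and COL4A2 (−0.36) were called lower under erastin. The same replicate numbers did not pair the samples (correlations of deviations −0.417 to 0.19). With the replicate block 16 members were called after silencing in DMSO, beside 32.2% of all genes, and 20 under erastin, beside 33.2%. In the other 3 comparisons 0 members were called with the block. Over all genes, erastin in siNT cells called 90, against 15 with only the 6 arrays, 38 with the replicate block, 165 without the dimmest 30%, 161 with the trended variance and 34 to 76 without an array.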

Other observations

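On probe sets other than those analysed, COL6A2 was called higher after silencing, by 0.19 in DMSO and 0.20 under erastin, where the analysed probe set differed by −0.13 and −0.15. A second MMP24OS probe set was called lower, by 0.32 and 0.28, where the analysed one differed by 0.09 and 0.01. MMP16, a membrane-type MMP, had a probe set higher by 0.46 in DMSO, and COL3A1 one higher by 0.27 under erastin. When each probe set was tested separately, 8 members called in DMSO on the analysed probe set had other probe sets. Of these, 3 (COL5A2, COL7A1 and FN1) had another called the same way, 0 the opposite way and 5 had none called. COL6A1, which has 8 probe sets, was not called on its analysed probe set in that test and is not among them. Of the 9 members called under erastin that have other probe sets, 3 (COL7A1, FN1 and THBS1) had another called the same way, 0 the opposite way and 6 had none called. Why probe sets of these genes differ was not tested.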
